A study of Oryctolagus cuniculus with 6 samples.

Results

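ACP5, CTSK, DCSTAMP and ATP6V0D2 are genes by which osteoclasts resorb bone and fuse with each other. They are 4 of the 23371 genes and unnamed features carried by a rabbit expression array (Oryctolagus cuniculus), of which 20216 were tested, 9339 of them named genes. They were chosen by name for these roles, and their probes were found through symbol, gene number or product name in the array's own columns. Where a gene had several probes, the brightest over the 6 arrays stood for it, and all 4 genes passed the filter on dim features. The tissue was the new tissue that formed in holes drilled into the skull roof of male New Zealand White rabbits aged 4 months, a study of 24 animals of 3.0 to 3.5 kg. Each animal carried 4 round holes in the parietal bone, 5 mm across. HPD groups come from holes on the right side that received 0.2 g of human particulated dentin, ground human tooth dentin used as a bone graft, and were sampled on days 3, 5 and 7. Control groups come from holes left empty, sampled on the same days, and all groups share the anaesthesia and the surgery. There was 1 array for each treatment and day, and it is not stated whether an array holds RNA of 1 animal or of several, so n = 1 throughout and no value has a replicate of its own kind. Both day 3 arrays lay on one slide, and the arrays of days 5 and 7 on another.

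Osteoclasts form when macrophage-lineage precursors, driven by the cytokines M-CSF and RANKL, fuse into multinucleated cells on bone. The sealed space beneath the cell is acidified by a vacuolar-type proton pump (V-ATPase), which dissolves mineral, and secreted enzymes then digest the exposed collagen. Dentin is a mineralized collagen matrix like bone and can be resorbed by such cells. DCSTAMP encodes a membrane protein needed for the fusion of precursors in mice. ATP6V0D2 encodes the d2 subunit of the pump's membrane part, also needed for fusion in mice. CTSK encodes cathepsin K, the main collagen-degrading protease of osteoclasts, and ACP5 encodes tartrate-resistant acid phosphatase, the classical histochemical stain for them.

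The signal of a gene on an array is that of short DNA probes, so what each probe reads decides what the values mean. The 4 genes had 12 probes of 60 bases, and the sequences below, from the array files, are the brightest probe of each gene and, where there were several, others that show how far the probes are independent. Capitals mark runs of at least 12 bases that a probe shares with another probe of the same gene. 
DCSTAMP probe 1: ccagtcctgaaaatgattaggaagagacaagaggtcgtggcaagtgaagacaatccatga
DCSTAMP probe 2: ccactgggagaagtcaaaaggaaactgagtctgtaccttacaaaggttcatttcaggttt
ATP6V0D2 probe 1: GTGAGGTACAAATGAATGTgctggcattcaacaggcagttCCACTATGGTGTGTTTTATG
ATP6V0D2 probe 2: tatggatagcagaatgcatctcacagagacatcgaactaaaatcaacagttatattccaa
ATP6V0D2 probe 3: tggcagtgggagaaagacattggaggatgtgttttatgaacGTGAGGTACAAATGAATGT
CTSK probe 1: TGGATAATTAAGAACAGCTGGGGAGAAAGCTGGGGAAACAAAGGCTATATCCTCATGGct
CTSK probe 2: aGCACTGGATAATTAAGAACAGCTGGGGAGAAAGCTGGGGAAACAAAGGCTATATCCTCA
ACP5 probe: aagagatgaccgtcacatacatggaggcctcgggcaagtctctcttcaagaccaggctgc

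The 2 DCSTAMP probes share no such run and read separate stretches of the predicted transcript XM_002710593, which the array lists under the older symbol TM7SF4. On the rabbit build oryCun2 the files place them at chr3:119713887-119713946 and chr3:119713000-119713886. The 4 ATP6V0D2 probes belong to ENSOCUT00000010246 (XM_002710673), and probe 1 lies at chr3:101633862-101635500. The array describes this transcript as d1-like, while its gene number carries the symbol ATP6V0D2 in the RefSeq gene table. Probe 1 shares 39 of its bases with probes 3 and 4, and probe 2 shares none. The 5 CTSK probes (NM_001082641, probe 1 at chr13:41358100-41359632) are shifted along one sequence by a few bases, with up to 59 bases in common, so they count as a single reading. ACP5 (NM_001081988) had 1 probe, which the files leave unmapped on oryCun2. A placement longer than 60 bases, as for CTSK with 1533, is split on the genome. The array gives no strand, and the overlapping CTSK and ATP6V0D2 probes run towards rising coordinates. None of the 12 probes shared a run of 20 bases with a probe of another gene, and all 12 were well above background on all 6 arrays. Values are given as log2 of the processed signal minus the array's 75th percentile (scaled log2 signal), and levels are not compared between genes, because probes differ in brightness.

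On day 3 all 4 genes were higher in HPD-filled than in empty defects, by 2.14-fold to 3.34-fold, and on days 5 and 7 each was less than 2-fold apart between them. In empty defects the 4 genes were higher on day 5 than on day 3, by 1.84-fold to 6.68-fold, and 3 of the 4 at least 2-fold, where 4.79% of features were. In HPD-filled defects the day 3 level was already near the later ones for DCSTAMP and CTSK. For ATP6V0D2 it was near the levels of day 5, at 2.98 against 3.25 with HPD and 3.34 in controls, and below those of day 7. For ACP5 it lay between the day 3 control and the later levels. These single-array differences have no test of their own. The empty defect of day 3 gave the lowest of the 6 values for each of the 4 genes, as it did for 25.3% of the 20216 features tested. The plot of signal by day shows this low control point for each gene.

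**Figure D1:**
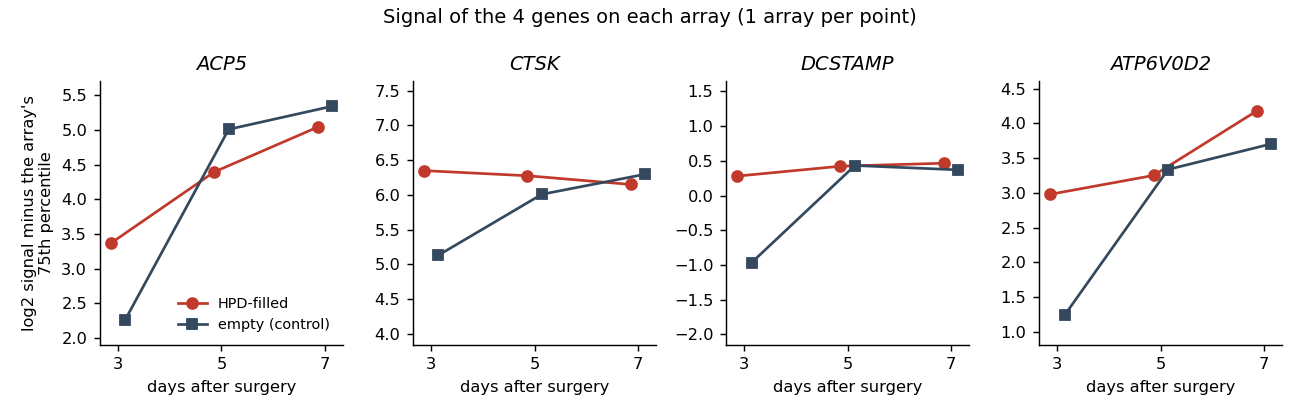
Scaled log2 signal (log2 signal minus the array's 75th percentile) of the brightest probe of each gene against days after surgery, with 1 array per point, circles for HPD-filled and squares for empty defects. In each panel the empty defect of day 3 is the lowest of the 6 points, at 2.27 for ACP5, 5.13 for CTSK, -0.97 for DCSTAMP and 1.24 for ATP6V0D2, and the panels share the height of their axes but not their position.

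DCSTAMP had a scaled log2 signal of 0.28 in HPD-filled defects on day 3, against -0.97 in empty defects. On day 5 the values were 0.42 with HPD and 0.43 in controls, and on day 7 they were 0.47 with HPD and 0.37 in controls. Apart from the empty defect of day 3, which was the low value, the treatments overlapped. The difference of 1.25 on day 3 (2.37-fold) stood against -0.01 on day 5 and 0.10 on day 7. The 3 HPD arrays lay within 0.19 of each other, while the control of day 5 was 1.40 above that of day 3 (2.64-fold). The processed intensities behind these values were 454 to 557 on the HPD arrays and 241 to 544 on the control arrays. Its second, non-overlapping probe gave a difference of 1.27 on day 3, 0.09 on day 5 and 0.29 on day 7, so the day 3 difference was read by separate parts of the transcript.

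ATP6V0D2, the pump subunit, had a scaled log2 signal of 2.98 in HPD-filled defects on day 3, against 1.24 in empty defects. On day 5 it was 3.25 with HPD and 3.34 in controls, and on day 7 it was 4.18 with HPD and 3.71 in controls. Its day 3 difference of 1.74 (3.34-fold) was the largest among the 4 genes, and the day 7 difference of 0.48 (1.39-fold) was the largest of that day. The order of its levels ran from HPD on day 7, through control on day 7, control on day 5, HPD on day 5 and HPD on day 3, to control on day 3. ATP6V0D2 was higher on day 7 than on day 3 in both treatments, by 1.20 with HPD (2.30-fold) and by 2.47 in controls (5.52-fold). Nearly all of the control difference lay between days 3 and 5 (2.10), and most of the HPD difference between days 5 and 7 (0.93). The 4 probes differed by 1.71 to 1.76 on day 3, by -0.13 to -0.06 on day 5 and by 0.43 to 0.48 on day 7.

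CTSK, the collagenase of the resorption space, had a scaled log2 signal of 6.35 in HPD-filled defects on day 3, against 5.13 in empty defects. On day 5 it was 6.27 with HPD and 6.01 in controls, and on day 7 it was 6.15 with HPD and 6.30 in controls. In HPD-filled defects its level was therefore nearly flat, with day 7 lower than day 3 by 0.20, and HPD on day 3 was the highest of the 6 values. In controls it was 0.88 higher on day 5 than on day 3 and 1.17 higher on day 7 (2.24-fold). The HPD minus control difference was 1.22 on day 3 (2.33-fold), 0.27 on day 5 and -0.15 on day 7. The 5 near-identical probes gave 1.06 to 1.22 on day 3 and -0.24 to -0.12 on day 7.

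ACP5, the acid phosphatase, had a scaled log2 signal of 3.37 in HPD-filled defects on day 3, against 2.27 in empty defects. On day 5 the order was the opposite, with 4.39 with HPD and 5.01 in controls, and on day 7 it was 5.04 with HPD and 5.34 in controls. The HPD minus control difference was 1.10 on day 3 (2.14-fold), -0.61 on day 5 and -0.30 on day 7. On day 5 the empty defects were thus 1.53-fold higher, the widest gap among the 4 genes on days 5 and 7. ACP5 had the steepest course over time of the 4 genes in both treatments. It was 1.67 higher on day 7 than on day 3 with HPD (3.19-fold) and 3.07 higher in controls (8.41-fold). Its only probe allows no comparison within the gene.

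**Figure D2:**
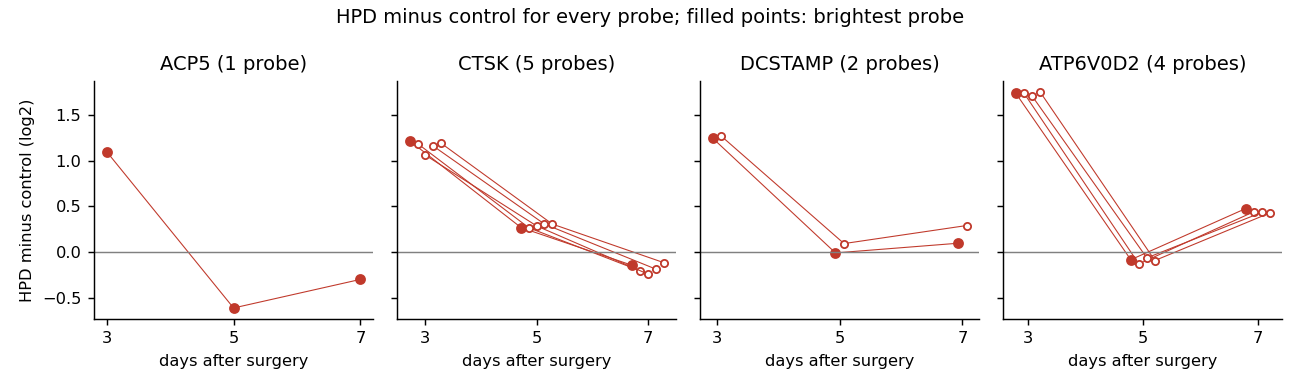
HPD minus control in scaled log2 signal for each of the 12 probes against days after surgery, with 1 array on each side, filled points for the brightest probe of a gene and points of a day set slightly apart. Each probe is above 1 on day 3, from 1.06 for a CTSK probe to 1.76 for an ATP6V0D2 probe, and the probes of a gene lie close together on each day.

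Set against all features, 3.59% of the 19861 that were well above background on both day 3 arrays were at least 2-fold higher with HPD that day, and 3.01% at least 2-fold lower. All 4 genes were among the 713 features that were higher. On day 5 the share at least 2-fold higher was 4.91% and on day 7 it was 1.65%, and none of the 4 genes was among those features. Being at least 2-fold higher on day 3 and less than 2-fold apart on days 5 and 7 held for all 4 genes and for 2.71% of the 18139 features well above background on all 6 arrays. The 4 genes were singled out with earlier results of these data known, so this contrast with all features does not stand as independent support. The median HPD minus control difference of all tested features was 0.14 on day 3, 0.09 on day 5 and 0.06 on day 7. The histograms of all features show where the 4 genes lie on each day.

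**Figure D3:**
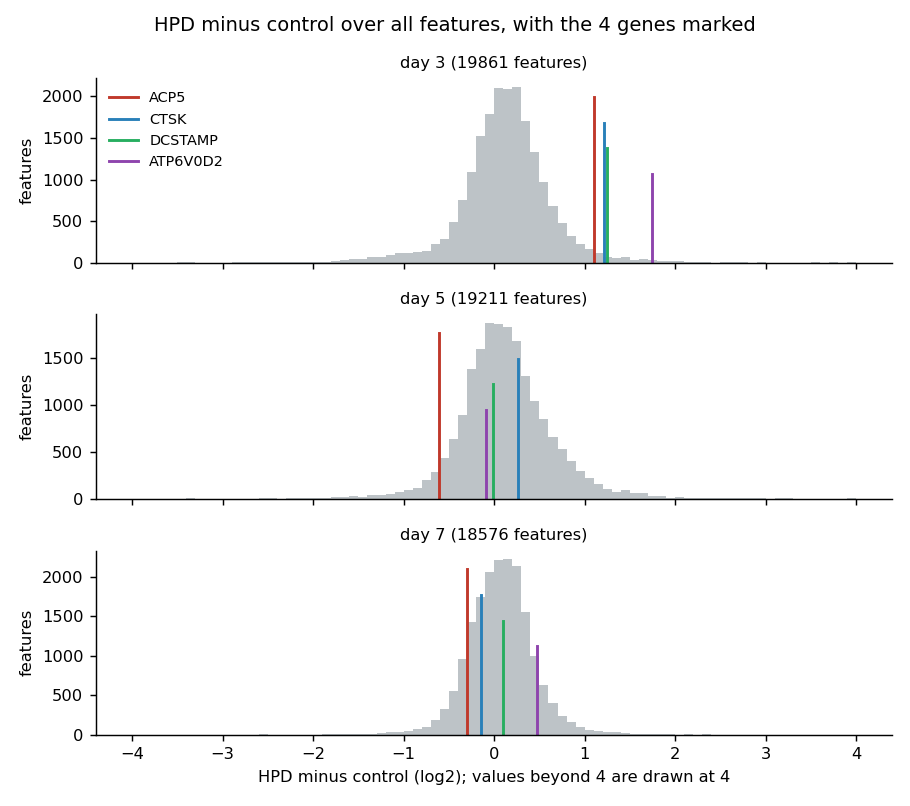
Number of features by HPD minus control in scaled log2 signal on days 3, 5 and 7, over the features well above background on both arrays of the day, with the 4 genes as coloured lines whose heights carry no value. On day 3 the 4 lines stand at 1.10 to 1.74, in the right tail, and on days 5 and 7 they stand between -0.61 and 0.48.

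A limma fit over all 6 arrays, with day and treatment as terms and Benjamini-Hochberg adjustment over the 20216 features, asked whether HPD moved a gene over the 3 days. It called 0% of features, 0 in all, with 1724 (8.53%) at an unadjusted p under 0.05. The mean difference of ATP6V0D2 was 0.71 ± 0.38 (SE, 6 arrays, limma adjusted p = 0.570), and HPD was higher on 2 of 3 days. That of CTSK was 0.45 ± 0.30 (limma adjusted p = 0.604), also higher on 2 of 3 days. DCSTAMP had 0.44 ± 0.30 (limma adjusted p = 0.604), likewise on 2 of 3 days. For ACP5 the mean difference was 0.06 ± 0.38 (limma adjusted p = 0.957), with a 95% interval of -0.94 to 1.06 and HPD higher on 1 of 3 days. Without day 3, on the slide that held days 5 and 7, the mean differences were 0.20 for ATP6V0D2, 0.06 for CTSK, 0.04 for DCSTAMP and -0.46 for ACP5. Leaving out a later day moved them the other way. Without day 5 they were 1.11 for ATP6V0D2, 0.54 for CTSK, 0.67 for DCSTAMP and 0.40 for ACP5, and without day 7 they were 0.83, 0.74, 0.62 and 0.24 in the same order. The moderated residual SD of the fit was 0.47 for ATP6V0D2, 0.46 for ACP5 and 0.37 each for CTSK and DCSTAMP. With 1 array for each treatment and day, it mixes noise with any change of the HPD difference between days, so it does not measure noise alone. In the order of levels, neighbours lay closer together than this SD for DCSTAMP from 0.28 to 0.47 and for CTSK from 6.01 to 6.35. The same held for ATP6V0D2 from 2.98 to 3.71 and for ACP5 from 5.01 to 5.34. The means of DCSTAMP, CTSK and ATP6V0D2 thus rest largely on day 3, and that of ACP5 changes sign without it. With median scaling in place of the 75th percentile, the ACP5 mean was -0.071.

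Whether the HPD difference moved evenly with day was fitted as a slope. The slope was -0.35 ± 0.18 per day for ACP5, -0.34 ± 0.11 for CTSK, -0.32 ± 0.20 for ATP6V0D2 and -0.29 ± 0.14 for DCSTAMP (SE, 6 arrays). All 4 slopes were below 0, as were 58.5% of all slopes. limma called 0% of features for the slope, 0 in all, with 646 (3.2%) at an unadjusted p under 0.05. CTSK was among these (unadjusted p = 0.0394), and the limma adjusted p was 0.9999 for each of the 4 genes. The slope had 1 residual degree of freedom, and the fit holds no replicate within a treatment and day.

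Over both treatments, ACP5 was 2.37 ± 0.46 higher on day 7 than on day 3 (SE, 6 arrays, limma adjusted p = 0.130 after Benjamini-Hochberg) and higher in both treatments. ATP6V0D2 was 1.83 ± 0.47 higher (limma adjusted p = 0.160), again in both. DCSTAMP was 0.76 ± 0.37 higher (limma adjusted p = 0.312). CTSK was 0.48 ± 0.37 higher (limma adjusted p = 0.485), the treatments differing in sign. In this contrast 0.00495% of features, 1 in all, were called, and none of the 4 genes was. Day 5 minus day 3 was 1.88 ± 0.46 for ACP5, 1.18 ± 0.47 for ATP6V0D2, 0.77 ± 0.37 for DCSTAMP and 0.40 ± 0.37 for CTSK, and 0.00495% of features, 1 in all, were called there too, none of the 4 among them. With normexp background correction 2 of the 4 genes passed for day 7 minus day 3, ACP5 at 2.22 (limma adjusted p = 0.0219) and ATP6V0D2 at 1.66 (limma adjusted p = 0.0492). They were among 1026 of the 20216 features called under that setting. Day 3 lay on a slide of its own, so slide and day cannot be told apart in any difference from day 3, whereas HPD and control of each day shared a slide. Within the slide of days 5 and 7, day 7 minus day 5 was 0.65 ± 0.47 for ATP6V0D2, 0.49 ± 0.46 for ACP5, 0.08 ± 0.37 for CTSK and -0.01 ± 0.37 for DCSTAMP. limma called 0% of features there, 0 in all, with 1633 (8.08%) at an unadjusted p under 0.05. With single arrays, 6.67% of features were at least 2-fold higher on day 7 than on day 3 in controls, as were all 4 genes. In HPD-filled defects this share was 4.49%, and ACP5 and ATP6V0D2 were among them.

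In a tissue sample, fewer cells of a type and less RNA per cell cannot be told apart, so the levels of other osteoclast genes and of other cell types are given beside these. Of 8 further osteoclast markers, 5 were named on the array. The protease MMP9, the integrin subunit ITGB3 and the carbonic anhydrase CA2 were well above background on all 6 arrays. The calcitonin receptor gene CALCR was so on 3 arrays, and TNFRSF11A, which encodes the RANKL receptor RANK, on 0. MMP9 had the same order of signs as ACP5, with HPD minus control differences of 0.77, -0.53 and -0.16 on days 3, 5 and 7. ITGB3 differed by 0.32, 0.05 and -0.13, and CALCR by -0.08, -0.47 and 0.38. CA2, which supplies protons for the pump and is also abundant in red cells, went the other way on day 3, at -2.10, and stood at 0.89 on day 5 and 0.31 on day 7. The 4 markers tested had a median of 0.12 on day 3, close to the 0.14 of all features.

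Among the upstream factors, 4 of 10 genes for ligands and receptors were named on the array and 3 tested. TNFSF11, the gene of RANKL, was 1.20 higher with HPD on day 3 (2.30-fold) at a low scaled log2 signal of -3.08, against -4.28 in controls. It differed by 0.43 on day 5 and -0.39 on day 7. TNFRSF11B, the gene of the RANKL decoy osteoprotegerin, differed by 0.00 on day 3 and 0.39 on day 5, and CSF1R, the M-CSF receptor gene, by -0.05 and 0.19. TNFSF11 was thus the only tested gene of the list at least 2-fold apart on day 3. Of 10 genes for transcription factors and signalling, 6 were tested, with a median of 0.44 on day 3, 0.70 on day 5 and 0.11 on day 7. MITF, a transcription factor of the osteoclast lineage, differed by 0.86, 0.12 and 0.02 on the 3 days, and its relative TFEC by 0.53, 0.65 and -0.01. FOS, an AP-1 subunit without which mice form no osteoclasts, was highest relative to controls on day 5, at 2.63 (6.17-fold), with 0.67 on day 3 and 1.31 on day 7. BCL6 and IRF8, both repressors of osteoclast formation in mice, differed on day 3 by 0.12 and -0.08, and the adaptor TRAF6 by 0.35. None of these genes passed the test of the HPD effect.

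Of 11 other resorption genes, 9 were tested, and their median was 0.46 on day 3, -0.08 on day 5 and 0.31 on day 7. The 9 include MMP9, ITGB3, CA2 and CALCR, the tested markers given above, so the lists are not separate. On day 3, 7 of the 9 were above 0, where 64% of all features were, and 0 were at least 2-fold higher. OSTM1, the partner of the chloride channel, differed by 0.88 on day 3, the chloride channel gene CLCN7 by 0.50 and TCIRG1, the a3 subunit of the osteoclast pump, by 0.46. CLCN7 and TCIRG1 were below 0 on days 5 and 7, CLCN7 at -0.26 and -0.15 and TCIRG1 at -0.08 on both days. OSTM1 stayed above 0, at 0.23 and 0.53, and so did PLEKHM1, at 0.64, 0.54 and 0.73 on days 3, 5 and 7. Of the 9 genes, 4 were above 0 and 5 below on day 5, and 5 above and 4 below on day 7. Of 8 other fusion genes 3 were tested. TM4SF19, a tetraspanin relative expressed in osteoclasts, was 2.78-fold higher with HPD on day 3, 2.71-fold on day 5 and 1.85-fold on day 7. Its 1 probe had a low scaled log2 signal, between -5.37 in controls of day 5 and -3.11 with HPD on day 3. The tetraspanin gene CD9 differed by 0.95, 1.07 and 0.61, and ADAM12 by 0.01, -0.11 and 0.17. TM4SF19 and CD9 thus stayed higher with HPD on the later days, on which DCSTAMP differed by -0.01 and 0.10.

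Of 23 other genes for pump subunits and accessory proteins, 15 were named on the array and 14 tested. Their median HPD minus control difference was 0.41 on day 3, 0.16 on day 5 and -0.09 on day 7. On day 3, 13 of 14 were above 0, against 64% of all features, but 0 of them were at least 2-fold higher. All 14 slopes with day were below 0, where 58.5% of all slopes were, and limma called 0 of them. ATP6V0A4 differed by 0.93, 1.03 and -0.11 and ATP6V1H, a regulatory subunit, by 0.81, 0.30 and -0.07. ATP6V0D1, which encodes the widely expressed d1 subunit in the place of d2, differed by -0.06 on day 3, 0.30 on day 5 and -0.16 on day 7, and ATP6V0E1 by 0.15 on day 3. The day 3 difference of ATP6V0D2, 1.74, lay above the range of these 14 genes, which ran from -0.06 to 0.93. For the relatives of the enzymes, 10 of 14 other cathepsin genes were tested, with medians of 0.28, 0.31 and 0.04 on the 3 days. CTSL1 (cathepsin L) differed by 0.95 and CTSB by 0.74 on day 3, and CTSF and CTSE by -0.16 and -0.69. The 4 other acid phosphatases tested had a median of 0.10 on day 3, from -0.16 for ACP2 to 0.30 for ACP3 and for ACP6, with ACP7 at -0.11.

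**Figure D4:**
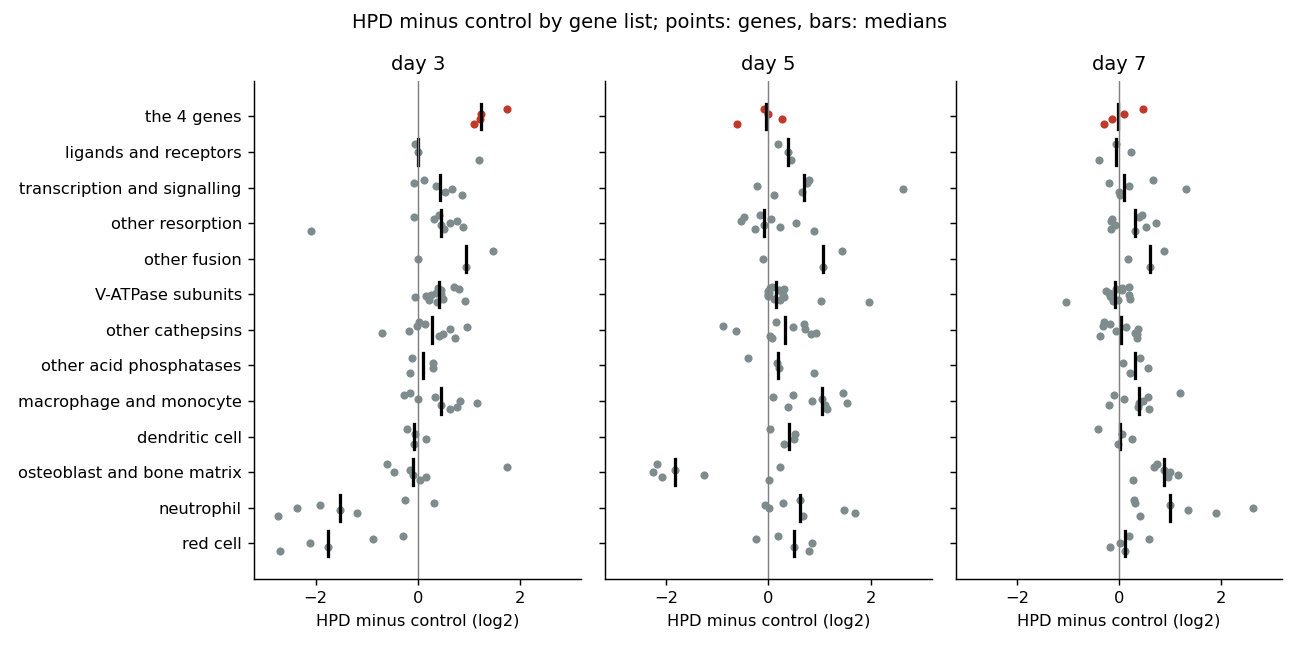
HPD minus control in scaled log2 signal on days 3, 5 and 7, with 1 point per tested gene (red for the 4 genes, grey for the other lists) and a bar at each list's median. On day 3 the 4 genes lie between 1.10 and 1.74, while the list medians run from -1.75 for red cell markers to 0.95 for the other fusion genes.

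Markers of other cells also differed between the arrays. Of 16 macrophage and monocyte markers 9 were tested, all well above background on all 6 arrays, with a median HPD minus control difference of 0.46 on day 3, 1.05 on day 5 and 0.38 on day 7. Their summed scaled signal was 57.4, 42.0 and 29.9 on days 3, 5 and 7 with HPD, against 39.4, 21.0 and 22.6 in controls. On day 3 MSR1, a scavenger receptor gene, differed by 1.15 and CD36 by 0.83, whereas CHIT1 and C1QA stood at -0.15 and -0.28. On day 5, 9 of 9 were higher with HPD, where 59.3% of all features were, and 5 of them at least 2-fold, where 4.91% were. On that day the 4 genes differed by 0.27 (CTSK), -0.01 (DCSTAMP), -0.08 (ATP6V0D2) and -0.61 (ACP5). Over both treatments, the list differed from day 3 to day 7 in the other direction from the 4 genes. Its day 7 minus day 3 estimates had a median of -0.83 and 9 of 9 were below 0, where 51.2% of all features were, and 0 passed the limma test. In HPD-filled defects alone, day 7 minus day 3 was -0.91 for the list median and -0.20 for CTSK. DCSTAMP, ATP6V0D2 and ACP5 were above 0 there. Slide and day cannot be told apart in these differences. The plot of both courses shows the 4 genes and the macrophage markers crossing between days 3 and 5 in controls.

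**Figure D5:**
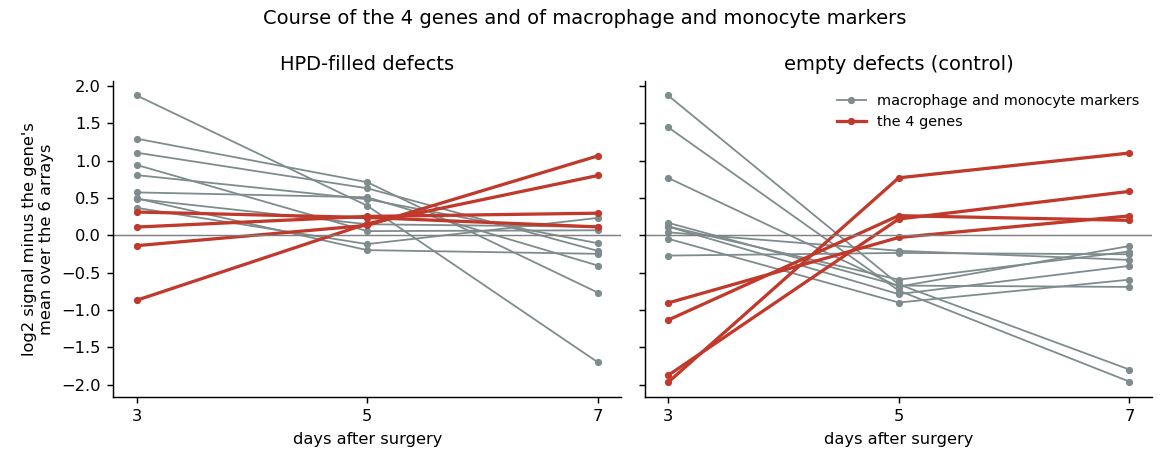
Log2 signal of each gene minus its mean over the 6 arrays, against days after surgery, in HPD-filled defects (left) and empty defects (right), with 1 array per point, red for the 4 genes and grey for 9 macrophage and monocyte markers. In empty defects the 4 red lines lie below the grey ones on day 3 and above them on day 5.

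Of 8 dendritic cell markers 4 were tested, because DCSTAMP was named after that cell type. They differed by a median of -0.07 on day 3, from -0.20 for CD1B and -0.08 for CD83 to -0.05 for XCR1 and 0.16 for CD86, and their summed scaled signal was 3.05 with HPD and 3.13 in controls on that day. Neutrophil markers, 7 of 10 tested, were lower with HPD on day 3 at a median of -1.53, with a summed scaled signal of 517 against 1433 in controls. Their medians on days 5 and 7 were 0.62 and 0.99, on the other side of 0. On day 3 MPO and LCN2 were the lowest at -2.74 and -2.36, and CXCR2 and MMP8 stood at 0.31 and -0.25. Red cell markers, 5 of 9 tested, had a median of -1.75 on day 3, with RHAG at -2.69, EPB42 at -2.11, SLC4A1 at -0.88 and the haemoglobin gene HBA at -0.30, and a summed signal of 1037 against 1298 in controls. The red cell medians on days 5 and 7 were 0.51 and 0.11, so both lists had a median below 0 on day 3 only of the 3 days. Neutrophil and red cell markers were all well above background on the 6 arrays, and the part of these cells in the day 3 difference of the 4 genes was not tested. Osteoblast and bone matrix markers, 7 of 10 tested, had medians of -0.09, -1.83 and 0.88 on the 3 days. SPP1 (osteopontin), to which osteoclasts attach, was 3.37-fold higher with HPD on day 3, IBSP (bone sialoprotein) differed by 0.17, and DMP1 and OMD by -0.46 and -0.61. On day 5 IBSP stood at -2.09 and DMP1 at -2.27. ACP5 differed by -0.61 on that day and by -0.30 on day 7, when the median of these markers was 0.88. A link between ACP5 and these markers was not tested. The day 7 minus day 3 median of this list was 2.23, in the same direction as ACP5 and ATP6V0D2, with 6 of 7 above 0, where 48.8% of all features were, and 0 called by limma.

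The 4 genes were compared with each other over the 6 arrays, which share days and slides, so the correlations are descriptions without a p-value. Pearson's r of the scaled log2 signal was 0.937 for DCSTAMP with ATP6V0D2, 0.935 for CTSK with DCSTAMP, 0.916 for ACP5 with ATP6V0D2, 0.852 for ACP5 with DCSTAMP, 0.844 for CTSK with ATP6V0D2 and 0.695 for ACP5 with CTSK. They formed a pair of flat courses under HPD, DCSTAMP and CTSK, and a pair that was higher on day 7 than on day 3 under HPD, ACP5 and ATP6V0D2. The distance in log2 units between centred profiles (root mean square over the 6 arrays) was 0.19 for CTSK and DCSTAMP, 0.44 for ACP5 and ATP6V0D2, 0.48 for DCSTAMP and ATP6V0D2, 0.61 for CTSK and ATP6V0D2, 0.71 for ACP5 and DCSTAMP and 0.85 for ACP5 and CTSK. The second pair was thus hardly closer to each other than ATP6V0D2 was to DCSTAMP. Of 8699 named genes compared, 49 lay nearer to CTSK than DCSTAMP did, and 25 nearer to ACP5 than ATP6V0D2 did. DCSTAMP had 316 genes before it in nearness to ACP5, and CTSK had 896. ATP6V0D2 had 2482 before it in nearness to DCSTAMP and 7139 in nearness to CTSK. Such a count was taken from a single side of each pair, and the distance also depends on how widely a gene varied. Counts taken from different genes are therefore not comparable. By the same distance, 8696 named genes well above background on all 6 arrays were ranked against the mean profile of the 4. The nearest were HAO2, a peroxisomal oxidase gene, at 0.116, the creatine transporter gene SLC6A8 at 0.122, TMEM212 at 0.137, the galactose mutarotase gene GALM at 0.147 and CD84, a leukocyte surface receptor gene, at 0.150. HAO2 had a low scaled log2 signal, between -2.57 with HPD on day 7 and -4.73 in controls of day 3. The nearest to ACP5 were EDIL3 at 0.177 and LRRC17 at 0.257, and those to CTSK were KIAA1328 at 0.119 and C6ST at 0.129. NR1I3 at 0.077 and PKD2L2 at 0.105 were nearest to DCSTAMP, and HAO2 at 0.266 was nearest to ATP6V0D2. Ranked by Pearson's r instead, the 5 nearest to the mean profile shared 2 genes, GALM and SLC6A8, with the list by distance.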

How the data were processed

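The 6 deposited array files hold spot intensity values on a linear scale, written by Agilent Feature Extraction 10.5.1.1 per the file headers, with background subtraction, detrending and substitute values for dim spots on and no step between arrays. Per the labels' protocols, 0.2 µg of RNA was amplified and labelled with Cy3. Each array held 45220 spots, of which 78.1% to 86.4% of the 43803 non-control spots were well above background and 0 were saturated. The number of arrays, not a read depth, limits the precision. From the deposited intensities, log2 values were computed and each was reduced by the 75th percentile of its array, taken over all probes but control probes. Outlier spots were left out, which removed 41 of 43603 probes, and spots of a probe were averaged. A symbol was found for 22692 probes, from the array's columns and a RefSeq gene table of another build (mOryCun1.1) used for names only, and 20911 had none. To be tested, a feature had to be well above background on 3 or more of the 6 arrays.

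limma 3.58.1 in R 4.3.3 (data.table, version 1.17.8) fitted day and treatment over all 6 arrays (2 residual degrees of freedom, 2.47 from the prior; 1 and 2.80 for the slope), with Benjamini-Hochberg adjustment at 0.05. Day serves as the block, since HPD and control holes lie in the same animals, on the assumption that a day's arrays share animals. The p-values reflect no more than the spread that the fit leaves among the 6 arrays. That spread may be technical, and in the fit of day and treatment it also holds any change of the HPD difference between days. On single days there was no test, and features at least 2-fold apart were counted where both arrays were well above background. The fit was tested on simulated data with independent noise and an HPD effect that was constant or changed evenly with day. A difference on day 3 alone was not simulated. Tables were made with pandas 2.3.3 and numpy 2.4.6, and plots with matplotlib 3.10.9, in Python 3.11.15. The text names the 4 genes, at least the 2 highest and 2 lowest of each of 12 lists by the day 3 difference among genes well above background on all arrays, the 5 genes nearest to the mean profile and the 2 nearest to each gene, of which some are not reported here. The 4 genes and the lists were chosen with earlier results of these data known. Alternatives were normexp background correction, other scalings, filters and probe choices, and leaving out days or the day terms.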

Additional observations from a re-analysis of the deposited data

Results flagged for a closer look

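The HPD minus control difference had opposite signs on 2 days for 8 pairs of a gene and days, with 1 array on each side. The change between these days was not tested by itself. Of all features well above background on both arrays, 36% were below 0 on day 3, 40.7% on day 5 and 41% on day 7. The share of features with opposite signs on 2 days was not counted. For ACP5 the difference was below 0 on days 5 and 7, a change of -1.71 on day 5 against day 3 and of -1.40 on day 7 against day 3. For CTSK the change of the difference was -0.41 on day 7 against day 5 and -1.37 on day 7 against day 3. For DCSTAMP it was -1.26 on day 5 against day 3 and 0.11 on day 7 against day 5, but its opposite signs rest on a day 5 difference of -0.01. That difference was above 0 with normexp (0.013), quantile normalization (0.025), the percentile over detected probes (0.027), the mean of probes (0.041) and the second probe (0.092). For ATP6V0D2 the change of the difference was -1.82 on day 5 against day 3 and 0.56 on day 7 against day 5. Its opposite signs rest on a day 5 difference of -0.08, and those of CTSK on a day 7 difference of -0.15. Both were smaller in size than the moderated residual SD, 0.47 for ATP6V0D2 and 0.37 for CTSK. The same held for ACP5 on day 7, at -0.30 against 0.46. The nearest test, limma's slope of the difference with day, called 0 of 20216 features after Benjamini-Hochberg adjustment.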

How the results depend on the processing

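No feature was called for the HPD effect under any of 11 alternatives (limma, smallest adjusted p 0.084 with normexp to 0.874 without the day terms, 900 to 2083 features at an unadjusted p under 0.05), which include the fit without day as the block and leaving out each day. The labels give each group 1 array, so the day terms are the only pairing, and without that block the count stayed 0. Normexp moved the other counts of called features, to 143 for the slope, 1026 for day 7 minus day 3, 292 for day 5 minus day 3 and 2 for day 7 minus day 5. For day 7 minus day 3 the count was 0 with quantile normalization, 0 with no filter and 5 with features well above background on all arrays, and for day 5 minus day 3 it was 0 with quantile normalization and 0 with no filter. The cause was not tested. Normexp also moved the median of all features, for example to 0.23 for day 5 minus day 3 in controls, in place of -0.03. The ACP5 mean HPD effect was -0.071 with median scaling and -0.46 without day 3. The DCSTAMP day 7 minus day 5 estimate, -0.01, was 0.0083 with quantile normalization, 0.0091 with the percentile over detected probes and 0.063 with the mean of probes. The nearest genes by Pearson's r shared 2 of 5. On day 3 the 4 differences stayed above 0 in every setting, with ACP5 from 0.93 to 1.21, CTSK from 1.05 to 1.46, DCSTAMP from 1.04 to 1.27 and ATP6V0D2 from 1.57 to 1.84, and only ACP5 went under 2-fold, with median scaling. A single array for each treatment and day limits all of these values.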

Other observations

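The array also carries probes for transcripts first sequenced from rabbit osteoclast libraries, according to their descriptions. Of 11 such features, 10 were tested, and their median HPD minus control difference was 0.19 on day 3, -0.02 on day 5 and 0.14 on day 7, near the medians of all features, 0.14, 0.09 and 0.06. On day 3, 8 of the 10 were above 0, where 64% of all features were, and 1 was at least 2-fold higher, where 3.59% were. That feature, R86447, for which no gene name was given, was chosen after its values were seen and differed by 2.44 on day 3, 0.34 on day 5 and 0.77 on day 7.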
